A study of Mus musculus with 12 samples.

Results

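Of the 54356 genes counted in these mouse astrocyte cultures, 8 are described: the secreted proteins Agt, Ptgds and Glycam1, the enzymes Inmt and Cbr2, the membrane transporters Slc7a11 and Slc13a5, and the signalling protein Ppp1r1b. They were selected on their measured read counts, because the counts per gene over the 6 groups differed between midbrain and cortex cultures in level or in response to shPTB. Their levels and fold changes are therefore given as a description, with no test. All 8 were among the 14607 genes that passed the filter on low counts.

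Astrocytes from C57BL/6 mice were cultured from midbrain or cortex. The shPTB cultures, which carried a hairpin for the knockdown of PTB (the product of Ptbp1, a splicing repressor of non-neuronal cells), were kept in neuronal differentiation medium for 2 or 4 weeks, and the mock cultures were kept in growth medium. The 6 groups were midbrain shPTB at 2 weeks, midbrain shPTB at 4 weeks, cortex shPTB at 2 weeks, cortex shPTB at 4 weeks, midbrain mock and cortex mock, with 2 libraries each. Hairpin, medium and time in culture changed together between shPTB and mock, so their effects cannot be told apart. The labels do not say whether the 2 libraries of a group came from separate cultures or animals, so every SD, standard error and p-value below measures only the spread between these libraries. They also do not say how the astrocytes were purified.

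The libraries held 6022098 to 11385761 reads, and 3 reads, the limit that a count of 0 allows, corresponded to 0.163 to 0.576 CPM (counts scaled to a common library size with TMM factors, which correct for composition). Ptbp1 averaged 98.0 and 162 CPM in midbrain shPTB at 2 and 4 weeks, against 229 CPM in midbrain mock, and 73.3 and 89.9 CPM in cortex shPTB, against 212 CPM in cortex mock. All 12 astrocyte markers reached at least 1 CPM in every group, but single markers differed from mock in either direction. Aldh1l1 averaged 39.9 and 30.0 CPM in midbrain shPTB at 2 and 4 weeks, against 139 CPM in mock, and 34.5 and 22.5 CPM in cortex shPTB, against 95.3 CPM. Sox9 averaged 522 and 765 CPM in midbrain shPTB, against 367 CPM in mock, and 624 and 919 CPM in cortex shPTB, against 421 CPM. Mock libraries stood apart in their spread: 14.6% of genes in midbrain mock and 17.6% in cortex mock differed more than 2-fold between the pair of libraries, against 2.82 to 5.61% in the shPTB groups. Mitochondrially encoded genes took 36.4 to 48.3% of reads in shPTB libraries and 16.9 to 22.7% in mock libraries.

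Angiotensinogen, the product of Agt, is the precursor of the angiotensins, and astrocytes are its known source in the brain. Ptgds encodes lipocalin-type prostaglandin D synthase, a secreted enzyme known from leptomeninges, choroid plexus and oligodendrocytes, and Glycam1 encodes a secreted sialomucin that binds L-selectin. Inmt methylates indoleamines such as tryptamine, Cbr2 is a carbonyl reductase known from mouse lung, Slc7a11 (xCT) exchanges glutamate for cystine and so feeds glutathione synthesis, Slc13a5 takes up citrate with sodium, and Ppp1r1b (DARPP-32) inhibits protein phosphatase 1 downstream of dopamine in striatal neurons.

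The 250 bases before the RefSeq start (GRCm38) were available for 7 of the 8 genes, of 32851 such windows in all. The windows of 4 genes are shown, each for a feature of its letters: a pair of amino acid response element cores in Slc7a11, a tandem repeat in Inmt, and STAT-type cores in Glycam1 and Agt, with the TATA box of Agt. The capitals in Slc7a11 (chr3:50443614-50443863, minus strand) mark TGATGNAA on either strand, the core bound by ATF4. Those in Inmt (chr6:55174991-55175240, minus strand) mark the longest exact repeat. Those in Glycam1 (chr15:103565082-103565331, minus strand) mark TTCNNNGAA, and those in Agt (chr8:124569707-124569956, minus strand) mark TTCNNNGAA and TATAAA.
Slc7a11: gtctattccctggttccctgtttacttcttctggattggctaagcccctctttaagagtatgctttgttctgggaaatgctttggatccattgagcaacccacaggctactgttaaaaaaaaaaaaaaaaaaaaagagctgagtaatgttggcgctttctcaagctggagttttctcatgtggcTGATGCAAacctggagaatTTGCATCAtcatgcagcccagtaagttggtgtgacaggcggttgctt
Inmt: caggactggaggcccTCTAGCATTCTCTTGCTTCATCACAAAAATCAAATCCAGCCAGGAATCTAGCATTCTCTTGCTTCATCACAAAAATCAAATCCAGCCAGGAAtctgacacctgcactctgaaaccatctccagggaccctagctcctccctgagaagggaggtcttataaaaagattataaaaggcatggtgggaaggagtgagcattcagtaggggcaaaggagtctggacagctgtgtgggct
Glycam1: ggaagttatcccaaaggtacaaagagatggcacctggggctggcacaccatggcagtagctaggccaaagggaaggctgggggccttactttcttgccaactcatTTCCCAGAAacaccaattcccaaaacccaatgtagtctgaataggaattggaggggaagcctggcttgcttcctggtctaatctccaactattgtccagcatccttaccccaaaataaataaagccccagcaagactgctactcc
Agt: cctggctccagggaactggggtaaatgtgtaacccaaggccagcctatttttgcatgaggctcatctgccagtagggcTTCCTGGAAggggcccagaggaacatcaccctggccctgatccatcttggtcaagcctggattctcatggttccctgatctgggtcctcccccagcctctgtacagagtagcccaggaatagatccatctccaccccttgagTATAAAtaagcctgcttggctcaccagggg

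The Slc7a11 window held the amino acid response core on both strands, from -66 to -59 and from -47 to -40 relative to the start. A match on either strand was present in 3.45% of all windows and more than 1 match in 0.0396%. TTCNNNGAA was found in the windows of Agt, Glycam1 and Slc7a11, and in 7.02% of all windows. The Inmt window held a stretch of 46 bases repeated in full directly behind itself, starting at -235 and again at -189, and 0.198% of all windows held an exact repeat of at least that length. It also held TATAAA at -80 and at -69, and Agt held it at -30, with 12.4% of windows holding it on some strand. Positions refer to the RefSeq start, and the gene annotation used for counting starts further upstream for some genes. There Inmt reached to chr6:55175043, inside its window, and Ptgds to chr2:25470046, past its whole window. The antioxidant response core TGACNNNGC was found in none of the 7 genes' windows and in 10.2% of all windows. Neither the palindromic glucocorticoid response element (0.387% of windows) nor the NFI palindrome (0.0365%) was found in them. These are matches of letters in a short window and do not show binding.

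Agt was higher in midbrain than in cortex cultures in all 3 states. Its libraries had 26.6 and 26.9 CPM in midbrain shPTB at 2 weeks and 15.5 and 13.9 CPM at 4 weeks, against 13.6 and 10.01 CPM in midbrain mock. Cortex shPTB had 1.68 and 1.46 CPM at 2 weeks and 1.10 and 0.961 CPM at 4 weeks, against 1.92 and 0.875 CPM in cortex mock. Every midbrain library lay above every cortex library, and the 3 midbrain groups did not overlap each other, while cortex mock overlapped both cortex shPTB groups. The log2 difference of midbrain over cortex was 4.08 ± 0.35 at 2 weeks, 3.82 ± 0.38 at 4 weeks and 3.03 ± 0.31 in mock (edgeR estimate ± standard error, here and below). edgeR returns no standard error, so it was derived as the absolute log2 value divided by the square root of edgeR's F statistic. Within midbrain the log2 fold change against mock was 1.18 ± 0.26 at 2 weeks and 0.32 ± 0.27 at 4 weeks, and the 4-week value was -0.57 when libraries were scaled to total reads. In cortex it was 0.12 ± 0.40 and -0.47 ± 0.45, from only 18 and 11 reads in the shPTB groups and 44 in mock, and the 2-week value was -0.65 with total reads scaling. On the authors' deposited TPM scale, which divides by Salmon's effective length and scales within a library without TMM factors, midbrain Agt was not above mock: it had 5.37 and 5.54 TPM at 2 weeks and 2.88 and 2.57 TPM at 4 weeks, against 7.48 and 4.12 TPM in midbrain mock. Every midbrain library was still above every cortex library, which had 0.13 to 1.1 TPM.

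**Figure D1:**
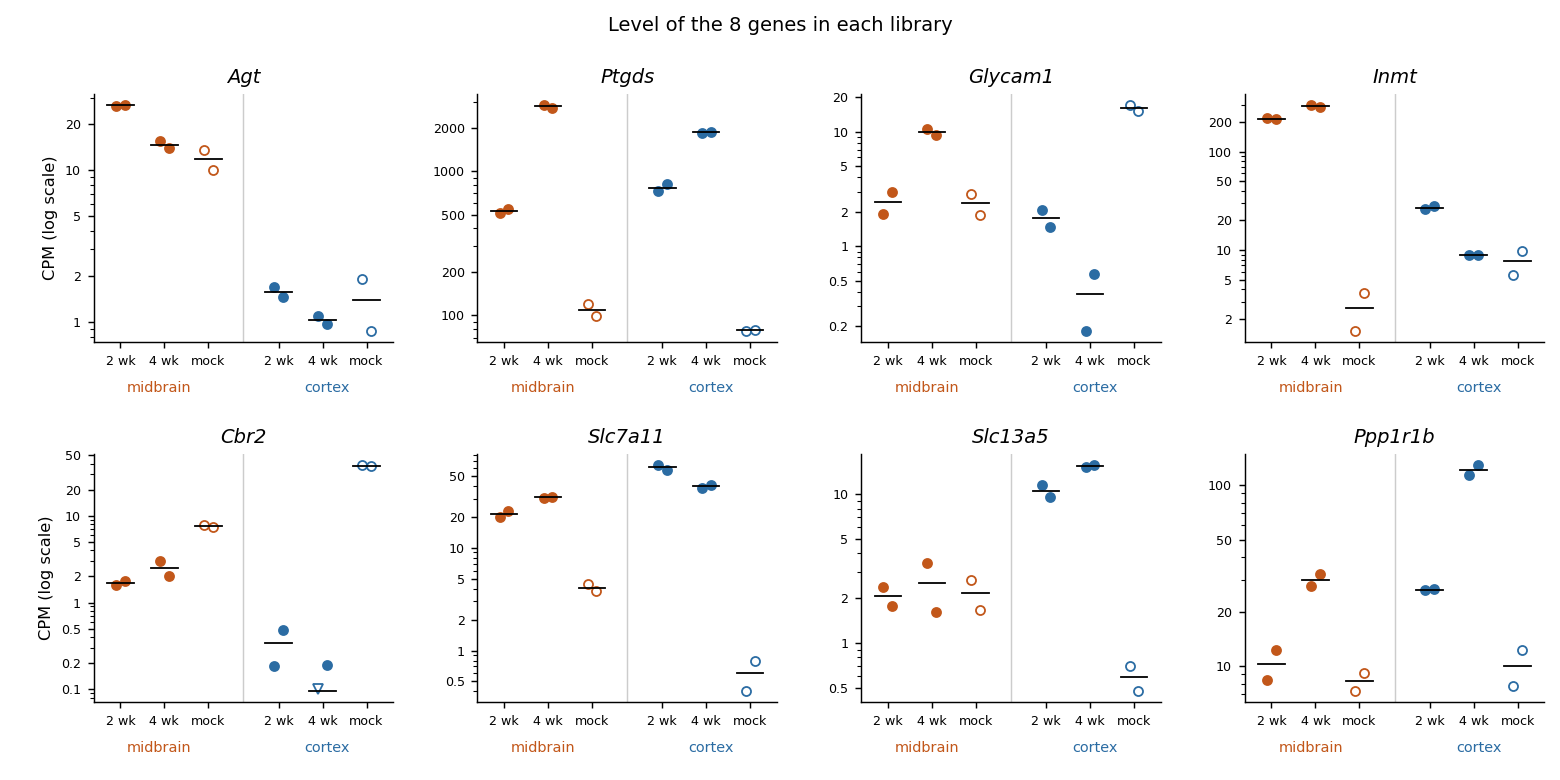
Level of each of the 8 genes in CPM (log axis) in every library, with midbrain in orange and cortex in blue, shPTB at 2 and 4 weeks as filled points, mock as open points, and black lines for the means of the 2 libraries. The Cbr2 library with 0 reads is an open triangle set at the foot of the scale. Agt separates the regions in all 3 states, Inmt is highest in midbrain shPTB, and Slc13a5 is highest in cortex shPTB.

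Among the genes whose pattern over the 12 libraries was most like that of Agt, by Pearson correlation of log2 CPM among 7005 genes, were Matn2 (r = 0.98) and Otx2 (r = 0.97). Otx2 is a transcription factor of midbrain patterning and also one of the choroid plexus markers. Otx2 averaged 25.2 and 29.9 CPM in midbrain shPTB at 2 and 4 weeks and 15.03 CPM in midbrain mock, against 3.54, 3.76 and 3.32 CPM in the cortex groups in the same order. These correlations, and those given for the other genes, are descriptions over 6 groups that share libraries and were picked as the highest of many.

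Ptgds was higher in shPTB than in mock cultures of both regions, and here the regions differed more in time course than in final level. Midbrain shPTB libraries had 509 and 542 CPM at 2 weeks and 2884 and 2751 CPM at 4 weeks, against 119 and 99.1 CPM in midbrain mock. Cortex shPTB libraries had 724 and 816 CPM at 2 weeks and 1852 and 1868 CPM at 4 weeks, against 78.1 and 78.6 CPM in cortex mock. No group overlapped its neighbour in the order of levels, and midbrain was below cortex at 2 weeks but above it at 4 weeks. The log2 fold change against mock was 2.27 ± 0.19 at 2 weeks and 4.69 ± 0.21 at 4 weeks in midbrain, and 3.30 ± 0.20 and 4.57 ± 0.21 in cortex. The difference of the responses, midbrain minus cortex, was -1.03 ± 0.26 at 2 weeks and 0.12 ± 0.26 at 4 weeks, and the 4-week value was -0.32 with an offset for transcript length.

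Reads of Ptgds were also divided differently among its transcripts, which the choice of the gene had not used. The protein-coding transcript Ptgds-203 took 23.5 and 27.7% of the gene's estimated reads in midbrain shPTB at 2 weeks and 36.8 and 36.8% at 4 weeks, against 6.8 and 10.2% in midbrain mock. In cortex it took 20.6 and 20.3% at 2 weeks and 20.3 and 20.7% at 4 weeks, against 6.9 and 7.2% in mock. Most other reads went to Ptgds-204, a transcript annotated without a coding sequence, with 63.0 to 79.7% in shPTB and 88.9 to 91.6% in mock libraries. The shares did not overlap between shPTB and mock in either region, but a comparison of 2 with 2 libraries has a smallest exact p of 0.333 and none was computed. Salmon divides reads of overlapping transcripts by a model, and how far its bias terms move with the groups was not tested. C1qtnf5 (r = 0.99), Clpp (r = 0.99) and Map2k7 (r = 0.99) had the patterns most like that of Ptgds.

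**Figure D2:**
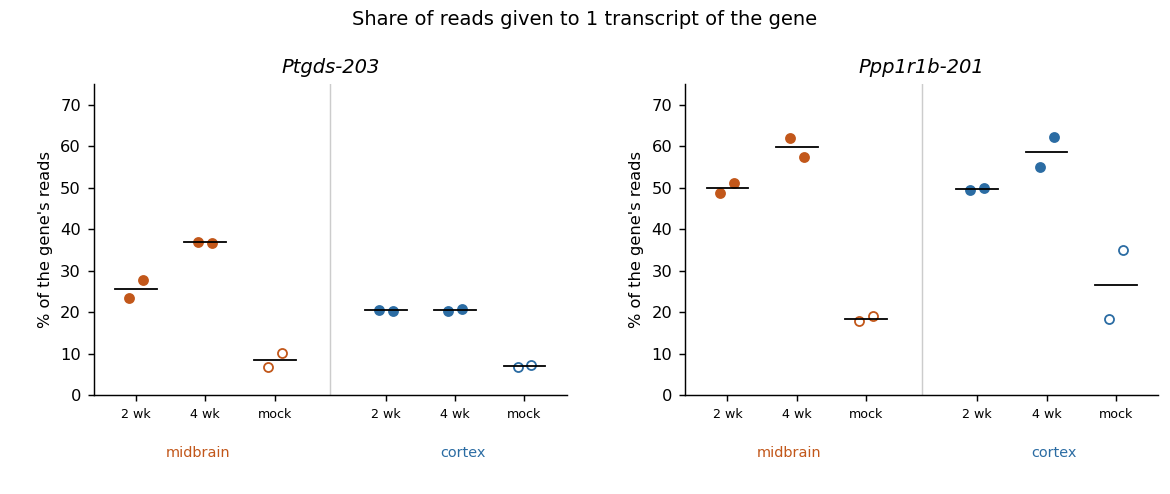
Percentage of the gene's estimated reads given to Ptgds-203 and to Ppp1r1b-201 in every library, with midbrain in orange, cortex in blue, shPTB filled, mock open and lines for means of 2 libraries. Both shares are higher in every shPTB library than in the mock libraries of the same region.

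Glycam1 differed from mock in opposite directions in the 2 regions at 4 weeks, while at 2 weeks the midbrain libraries overlapped mock. It had 1.92 and 2.98 CPM in midbrain shPTB at 2 weeks and 10.6 and 9.37 CPM at 4 weeks, against 2.88 and 1.86 CPM in midbrain mock. Cortex shPTB libraries had 2.06 and 1.46 CPM at 2 weeks and 0.183 and 0.576 CPM at 4 weeks, against 17.2 and 15.2 CPM in cortex mock. The high groups were thus midbrain at 4 weeks and cortex mock, which did not overlap each other or any other group, while midbrain at 2 weeks, midbrain mock and cortex at 2 weeks overlapped as neighbours. In midbrain the log2 fold change against mock was 0.04 ± 0.34 at 2 weeks and 2.06 ± 0.32 at 4 weeks, and the 2-week value was -0.64 with total reads scaling. In cortex it was -3.21 ± 0.36 at 2 weeks. At 4 weeks the cortex libraries held 4 reads of Glycam1 against 487 in mock, a level 43.6-fold lower with a counting interval of 16.9 to 161 (exact, 95%, counting error only). Synpo (r = 0.92), Cacfd1 (r = 0.90) and P2ry2 (r = 0.88) came closest to its pattern.

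Inmt was higher in midbrain than in cortex cultures after shPTB, and lower in mock. Midbrain shPTB libraries had 220 and 212 CPM at 2 weeks and 298 and 283 CPM at 4 weeks, against 1.52 and 3.66 CPM in midbrain mock. Cortex shPTB libraries had 26.0 and 27.9 CPM at 2 weeks and 8.97 and 8.84 CPM at 4 weeks, against 5.64 and 9.87 CPM in cortex mock. All midbrain shPTB libraries exceeded all others, cortex at 2 weeks came next, and cortex at 4 weeks lay within the range of cortex mock. Midbrain mock was the lowest group. The log2 fold change against mock was 6.39 ± 0.40 and 6.82 ± 0.40 in midbrain at 2 and 4 weeks, and 1.81 ± 0.33 and 0.21 ± 0.35 in cortex. The last value ranged from -0.82 to 1.49 over the 23 alternative settings, while the midbrain value at 4 weeks ranged from 5.99 to 7.86. The direction of the regional difference was opposite in mock, where midbrain over cortex was -1.58 ± 0.36, and after shPTB, where it was 2.998 ± 0.33 at 2 weeks and 5.02 ± 0.37 at 4 weeks.

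The genes closest to Inmt were Bmp4 (r = 0.99), Cxcl14 (r = 0.98) and Cyp2d22 (r = 0.98). Bmp4, a secreted growth factor, averaged 17.5 and 20.5 CPM in midbrain shPTB at 2 and 4 weeks and 5.25 CPM in midbrain mock, and 10.9 and 7.52 CPM in cortex shPTB and 6.89 CPM in cortex mock. Cxcl14, a chemokine, averaged 96.1 and 84.5 CPM in midbrain shPTB and 21.97 CPM in midbrain mock, and 48.3 and 29.8 CPM in cortex shPTB and 27.1 CPM in cortex mock.

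Cbr2 was lower in shPTB than in mock cultures of both regions, and nearly without reads in cortex. It had 1.58 and 1.77 CPM in midbrain shPTB at 2 weeks and 3.04 and 2.01 CPM at 4 weeks, against 7.81 and 7.38 CPM in midbrain mock. Its cortex shPTB libraries had 0.187 and 0.487 CPM at 2 weeks and 0 and 0.192 CPM at 4 weeks, against 38.6 and 37.2 CPM in cortex mock. Cortex was thus the high region in mock and the low one after shPTB, and only the 2 cortex shPTB groups overlapped. In midbrain the log2 fold change was -2.17 ± 0.30 at 2 weeks and -1.59 ± 0.29 at 4 weeks. In cortex 4 reads at 2 weeks against 1133 in mock gave a level 109-fold lower, with a counting interval of 42.6 to 402. A single read at 4 weeks gave a level 405.7-fold lower, with an interval of 72.7 to 16038. Of the 31-base words in the last 500 bases of Cbr2, 42.1% also occurred in Gm11771, to which 0 reads were assigned in all 12 libraries. Rbpj (r = 0.97), Dhrs4 (r = 0.96) and Plce1 (r = 0.96) had the most similar patterns. Dhrs4 is itself a carbonyl reductase, with 27.8 and 31.7 CPM in midbrain shPTB at 2 and 4 weeks and 36.6 CPM in midbrain mock, and 26.2 and 24.4 CPM in cortex shPTB and 48.2 CPM in cortex mock.

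Slc7a11 had higher CPM in shPTB than in mock cultures of both regions, and its mock level was lower in cortex. It had 19.8 and 23.0 CPM in midbrain shPTB at 2 weeks and 30.7 and 31.5 CPM at 4 weeks, against 4.39 and 3.79 CPM in midbrain mock. In cortex it had 63.8 and 57.4 CPM at 2 weeks and 38.5 and 40.4 CPM at 4 weeks, against 0.407 and 0.796 CPM in cortex mock. No groups overlapped, and cortex held both the highest level, at 2 weeks, and the lowest, in mock, where the pair of libraries held 17 reads. The log2 fold change against mock was 2.38 ± 0.22 and 2.92 ± 0.22 in midbrain at 2 and 4 weeks, and 6.68 ± 0.28 and 6.06 ± 0.28 in cortex. In deposited TPM the midbrain difference was smaller, with 0.525 and 0.652 at 2 weeks and 0.632 and 0.621 at 4 weeks, against 0.557 and 0.282 in midbrain mock, and the 2-week libraries overlapped mock. Cortex had 1.39 and 1.18 TPM at 2 weeks and 0.513 and 0.539 TPM at 4 weeks, against 0.0577 and 0.0519 TPM in cortex mock. Midbrain minus cortex, the responses on the log2 CPM scale differed by -4.30 ± 0.35 at 2 weeks and -3.14 ± 0.35 at 4 weeks. The 4-week level differed from the 2-week level in opposite directions, by 0.54 ± 0.20 in midbrain and -0.62 ± 0.20 in cortex on the log2 scale. The most similar pattern was that of Fam20a (r = 0.99), a secretory-pathway pseudokinase, with 77.8 and 112 CPM in midbrain shPTB at 2 and 4 weeks and 18.6 CPM in midbrain mock, and 152 and 111 CPM in cortex shPTB and 3.79 CPM in cortex mock. Dusp15 (r = 0.97) and Abhd2 (r = 0.97) followed.

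Slc13a5 was higher after shPTB in cortex, while its midbrain groups overlapped. It had 2.38 and 1.77 CPM in midbrain shPTB at 2 weeks and 3.45 and 1.61 CPM at 4 weeks, against 2.66 and 1.67 CPM in midbrain mock. In cortex it had 11.6 and 9.57 CPM at 2 weeks and 15.2 and 15.8 CPM at 4 weeks, against 0.697 and 0.477 CPM in cortex mock. The 3 midbrain groups overlapped each other, and they lay between cortex mock, below them, and the cortex shPTB groups, above them. The log2 fold change was -0.07 ± 0.38 and 0.21 ± 0.38 in midbrain at 2 and 4 weeks, and 4.11 ± 0.41 and 4.66 ± 0.41 in cortex. With a transcript length offset the 4-week values were -1.32 in midbrain and 2.85 in cortex. The deposited TPM averaged 0.0585 and 0.0420 in midbrain shPTB at 2 and 4 weeks, against 0.326 in midbrain mock, and 0.224 and 0.135 in cortex shPTB, against 0.0773 in cortex mock. The midbrain groups at 2 and 4 weeks thus lay below mock in TPM. TPM differs from CPM in library scaling as well as in length, and with total reads scaling and no length correction the midbrain 4-week value was -0.67. The transcript Slc13a5-201 took 98.4 to 100% of the gene's reads in every library, so the length term followed Salmon's effective length of that transcript. How far Salmon's bias terms move this length with the groups was not tested, so the TPM and length-offset values are not a firmer reading than CPM. The exons of Slc13a5 share 9.57% of their bases with the antisense gene 1700051A21Rik, to which 0 to 5 reads per library were assigned.

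The pattern of Slc13a5 was most like those of Sfxn1 (r = 0.96), a mitochondrial serine transporter, Mbp (r = 0.96) and Ctif (r = 0.95). Mbp encodes myelin basic protein of oligodendrocytes and averaged 4.19 and 4.01 CPM in midbrain shPTB at 2 and 4 weeks and 3.61 CPM in midbrain mock, and 38.4 and 36.5 CPM in cortex shPTB and 1.43 CPM in cortex mock. The summed level of 10 oligodendrocyte lineage markers was 229 to 234 CPM at 2 weeks and 257 to 269 CPM at 4 weeks in midbrain shPTB, against 254 to 298 CPM in midbrain mock. In cortex it was 412 to 448 CPM and 445 to 463 CPM, against 161 to 186 CPM in mock. Of these markers 7 or 8 reached 1 CPM in each group, and Mog was at 0 reads in both mock groups and in midbrain at 4 weeks. Members of this list differed in direction in cortex, where Olig2, a transcription factor of the lineage, averaged 7.75 and 6.20 CPM in shPTB, against 14.2 CPM in mock, and Cspg4, a marker of its progenitors, averaged 0.793 and 0.659 CPM, against 4.42 CPM. The part of this cell type in the levels of Slc13a5 and of Ptgds was not tested. In bulk libraries such as these, a change in the number of cells of a type and a change in RNA per cell cannot be told apart.

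Ppp1r1b had higher CPM at 4 weeks of shPTB in both regions, with the larger difference in cortex. It had 8.37 and 12.2 CPM in midbrain shPTB at 2 weeks and 27.6 and 32.1 CPM at 4 weeks, against 7.32 and 9.18 CPM in midbrain mock. In cortex it had 26.2 and 26.8 CPM at 2 weeks and 113 and 129 CPM at 4 weeks, against 7.79 and 12.3 CPM in cortex mock. Midbrain at 2 weeks and both mock groups overlapped, and the other groups stood clear of each other, cortex at 4 weeks highest. The log2 fold change was 0.32 ± 0.26 and 1.86 ± 0.26 in midbrain at 2 and 4 weeks, and 1.40 ± 0.26 and 3.596 ± 0.27 in cortex. The midbrain 2-week value was -0.33 with total reads scaling and -0.28 with a length offset. In deposited TPM the gene averaged 1.32 and 3.13 in midbrain shPTB at 2 and 4 weeks, against 3.95 in midbrain mock, and 3.23 and 7.59 in cortex shPTB, against 3.93 in cortex mock, so on that scale only cortex at 4 weeks averaged above mock. With the length offset alone the other values were 1.22 in midbrain at 4 weeks and 0.98 and 2.87 in cortex. Ppp1r1b-201, the longer of its 2 main coding transcripts, took 48.7 and 51.1% of the gene's estimated reads in midbrain shPTB at 2 weeks and 62.1 and 57.5% at 4 weeks, against 17.8 and 19.2% in midbrain mock. In cortex it took 49.6 and 49.9% at 2 weeks and 55.0 and 62.2% at 4 weeks, against 18.3 and 34.9% in mock. Rbm4b (r = 0.97) and Tns3 (r = 0.97) were among the genes nearest to it. An antisense gene, 1700003D09Rik, shares 15.7% of its exonic bases and had 0 to 5 reads per library.

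**Figure D3:**
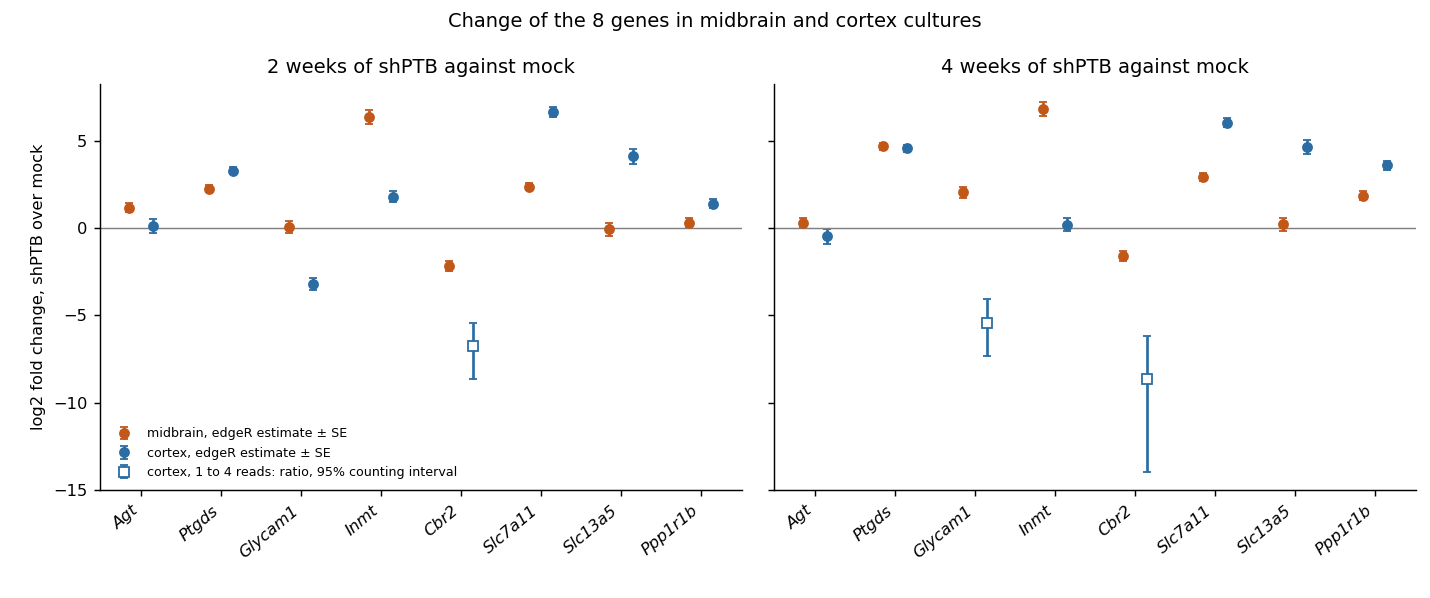
Log2 fold change of shPTB over mock at 2 weeks (left) and 4 weeks (right) for the 8 genes, midbrain in orange and cortex in blue. Circles are edgeR estimates with standard errors, and open squares are ratios of 1 to 4 reads against mock with their 95% counting intervals. Inmt lies higher in midbrain, and Slc7a11, Slc13a5 and Ppp1r1b lie higher in cortex, at both times.

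In deposited TPM, shPTB libraries of Ptgds lay above mock and those of Cbr2 below mock in all 4 comparisons without overlap, as in CPM. Glycam1 had 1.41 and 2.03 TPM in midbrain shPTB at 2 weeks, against 5.05 and 2.45 TPM in midbrain mock, and Inmt had 4.05 and 3.93 TPM in cortex shPTB at 4 weeks, against 4.46 and 5.68 TPM in cortex mock, both below mock without overlap where CPM overlapped. Their other comparisons with mock had the direction seen in CPM.

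Since the mock libraries lie further apart than the others, the fold changes were recomputed without both mock libraries of the same number, a setting chosen after seeing the data. Without the pair numbered 1 the log2 fold change of Inmt was 5.87 and 6.30 in midbrain at 2 and 4 weeks and 1.44 and -0.16 in cortex, and without the pair numbered 2 it was 7.14 and 7.57 in midbrain and 2.26 and 0.66 in cortex. For Slc7a11 the cortex values were 6.21 and 5.596 without the pair numbered 1 and 7.17 and 6.55 without the pair numbered 2. Signs differed between the 2 settings for Agt in cortex at 2 weeks (0.82 and -0.29) and 4 weeks (0.23 and -0.89), for Glycam1 in midbrain at 2 weeks (0.40 and -0.22), for Slc13a5 in midbrain at 2 weeks (0.30 and -0.36) and 4 weeks (0.59 and -0.07), and for Inmt in cortex at 4 weeks. The other comparisons of the 8 genes with mock that held more than 3 reads in each group kept their sign in both settings.

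Among the 8 genes, libraries of shPTB and mock did not overlap for 4 higher and 1 lower gene in midbrain at 2 weeks, 6 higher and 1 lower in midbrain at 4 weeks, 5 higher and 2 lower in cortex at 2 weeks, and 4 higher and 2 lower in cortex at 4 weeks. Of all tested genes, 32.3% were higher and 33.9% lower without overlap in midbrain at 2 weeks, 32.5% and 37.8% in midbrain at 4 weeks, 31.5% and 34.9% in cortex at 2 weeks, and 31.7% and 36.4% in cortex at 4 weeks. In mock, 4 of the 8 were higher and 3 lower in midbrain than in cortex without overlap, as were 13.6% and 12.7% of all genes. Nothing is read from these counts, since the same values chose the genes.

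Markers of neighbouring tissues differed between the groups as well. The summed level of 12 choroid plexus markers was 108 to 109 CPM in midbrain shPTB at 2 weeks and 134 to 135 CPM at 4 weeks, against 49.9 to 59.2 CPM in midbrain mock. In cortex the sum was 37.6 to 40.4 CPM and 26.4 to 29.8 CPM, against 46.9 to 54.8 CPM in mock. Ttr, the transthyretin gene that defines choroid plexus epithelium, averaged 23.0 and 32.3 CPM in midbrain shPTB at 2 and 4 weeks and 1.26 CPM in midbrain mock, and 4.21 and 6.09 CPM in cortex shPTB and 0.32 CPM in cortex mock, while Kcne2 was at 0 reads throughout. Others of this list were lower: Sostdc1, a secreted BMP antagonist, averaged 8.17 and 6.19 CPM in midbrain shPTB, against 12.96 CPM in midbrain mock, and Calml4 averaged 7.54 and 11.9 CPM, against 15.4 CPM. Members also went both ways in cortex, where Aqp1 averaged 1.75 and 0.19 CPM in shPTB, against 19.8 CPM in mock. Sostdc1 averaged 1.07 and 1.70 CPM in cortex shPTB, against 18.6 CPM. Prlr, in contrast, averaged 19.5 and 12.3 CPM in cortex shPTB, against 0.21 CPM, and 21.6 and 22.3 CPM in midbrain shPTB, against 0.37 CPM. Of the 12 markers, 7 reached 1 CPM in both midbrain shPTB groups and 6 in midbrain mock.

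The summed level of 16 leptomeningeal and fibroblast markers was lower after shPTB, with 610 to 614 CPM at 2 weeks and 506 to 511 CPM at 4 weeks in midbrain, against 1499 to 1740 CPM in midbrain mock. In cortex it was 284 to 292 CPM and 247 to 254 CPM, against 707 to 867 CPM in mock. Single markers differed in direction, so the sum does not show that this list fell as a set. The collagen genes Col1a1 and Col1a2 were the largest terms of the sum in midbrain mock. Col1a1 averaged 163 and 103 CPM in midbrain shPTB at 2 and 4 weeks, against 970 CPM in midbrain mock. Col1a2 averaged 90.4 and 51.1 CPM, against 352 CPM. Other markers went both ways in midbrain. Bgn averaged 1.73 and 1.77 CPM in shPTB, against 136 CPM in mock. Foxc1 averaged 165 and 171 CPM, against 52.9 CPM, and Islr 65.9 and 47.1 CPM, against 9.53 CPM. Aldh1a2, a retinoic acid-synthesising enzyme of the meninges, averaged 23.0 and 29.6 CPM, against 2.06 CPM. The part of choroid plexus or leptomeningeal cells in the levels of Agt, Ptgds and Inmt was not tested. The sums of microglia, mural and ependymal markers were all lower in shPTB than in mock libraries of the same region. Acta2, a contractile actin, averaged 296 CPM in cortex mock, where the mural sum was 318 to 379 CPM, and 6.22 CPM in cortex shPTB at 2 weeks. Single markers differed in direction in midbrain. The mural marker Pdgfrb averaged 2.35 and 2.59 CPM in shPTB, against 0.73 CPM in mock, and Notch3 16.4 and 10.9 CPM, against 29.3 CPM. Of the ependymal markers, Tmem212 averaged 9.16 and 8.72 CPM, against 1.11 CPM, and Foxj1 7.69 and 4.15 CPM, against 38.6 CPM.

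**Figure D4:**
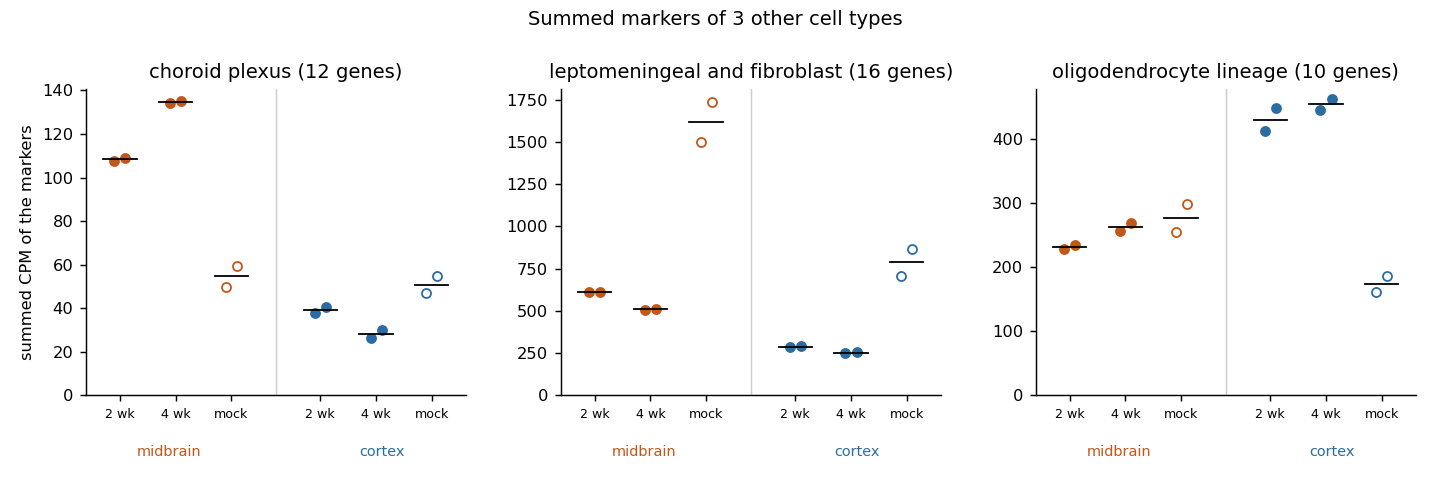
Summed CPM of the markers of choroid plexus, of leptomeninges and fibroblasts, and of the oligodendrocyte lineage in every library, with midbrain in orange, cortex in blue, shPTB filled, mock open and lines for means of 2 libraries. Choroid plexus sums are highest in midbrain shPTB and oligodendrocyte lineage sums in cortex shPTB.

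The other genes of the pathways around these 8 were tested with edgeR's quasi-likelihood test, with p-values adjusted over all 14607 genes by the Benjamini-Hochberg method and a threshold of 0.05. The 11 lists, without the 8 genes themselves, held 219 annotated genes, of which 175 were tested. In midbrain 36 of the 175 were higher and 31 lower at 2 weeks, against 15.9% and 14.7% of all genes tested, and 48 were higher and 48 lower at 4 weeks, against 18.7% and 20.4%. In cortex 38 were higher and 37 lower at 2 weeks, against 17.5% and 17.6% of all genes, and 33 were higher and 45 lower at 4 weeks, against 18.5% and 20.9%. Median log2 fold changes of the 175 lay between -0.17 and -0.08, and those of all genes between -0.15 and -0.07. The split depends on the scaling: with total reads in place of TMM the median of all genes fell to between -1.21 and -0.74, and 17.1% of all calls in midbrain at 2 weeks, 13.1% at 4 weeks, and 16.5% and 9.28% in cortex were higher, against 51.8%, 47.8%, 49.8% and 47.0% with TMM. In mock, 2 were higher and 2 lower in midbrain than in cortex, against 1.25% and 0.938% of all genes. In either direction the share of all genes called was 30.6% and 39.2% in midbrain at 2 and 4 weeks, 35% and 39.4% in cortex and 2.19% between the mock groups. Counts of single lists depend more on single libraries: of the 44 counts against mock given below for the 11 lists, 28 moved by more than 1.5 times when some 1 library was left out, and those of the methyl donor list did not under any of the 23 settings.

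Genes of cystine use and glutathione, the pathway that Slc7a11 supplies, were listed together with targets of NRF2. Of 26 tested, 10 rose and 4 fell in midbrain at 2 weeks and 15 rose (57.7%) and 2 fell at 4 weeks, while 10 rose (38.5%) and 2 fell in cortex at 2 weeks and 9 rose and 3 fell at 4 weeks. Of all genes tested, 15.9 to 18.7% rose and 14.7 to 20.9% fell in these comparisons. The list's median log2 fold change was 0.31 and 0.66 in midbrain and 0.45 and 0.47 in cortex. The medians of all genes were -0.07 and -0.15 in midbrain and -0.11 and -0.12 in cortex. Slc3a2, the heavy chain that Slc7a11 needs to reach the membrane, averaged 2341 and 3068 CPM in midbrain shPTB at 2 and 4 weeks and 646 CPM in midbrain mock, and 2943 and 2501 CPM in cortex shPTB and 781 CPM in cortex mock. Its log2 fold change in midbrain at 4 weeks was 2.25 ± 0.45 (adjusted p = 0.00273). Hmox1, heme oxygenase, rose in midbrain at 4 weeks by 2.92 ± 0.32 (adjusted p = 5.58e-05), to 94.97 CPM against 12.5 CPM in mock. Nfe2l2, which encodes NRF2 itself, fell in cortex at 4 weeks by 2.51 ± 0.50 (adjusted p = 0.00248), with 9.90 CPM against 56.5 CPM in mock. Its midbrain average at 4 weeks was 10.9 CPM, against 51.3 CPM in mock. Srxn1, sulfiredoxin, rose in all 4 comparisons, as did G6pdx, the entry enzyme of the pentose phosphate pathway, and Gstm1, a glutathione transferase.

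In the amino acid response list, targets of ATF4, 3 of 18 genes were higher and 5 lower in midbrain at 2 weeks, 5 and 7 at 4 weeks, 7 and 4 in cortex at 2 weeks and 5 and 3 at 4 weeks. These are 16.7 to 38.9% of the list in each direction, against 14.7 to 20.9% of all genes. Ddit3, a stress-induced transcription factor, rose in cortex at 4 weeks by 1.93 ± 0.32 (adjusted p = 0.000817), a call lost with total reads scaling (0.82, adjusted p = 0.0893) and with a length offset (0.22, adjusted p = 0.653). Eif4ebp1, a repressor of translation initiation, fell there by 2.38 ± 0.37 (adjusted p = 0.00047). The midbrain averages at 4 weeks were 30.6 CPM for Ddit3, against 10.2 CPM in mock, and 7.75 CPM for Eif4ebp1, against 27.5 CPM. Trib3 was higher in midbrain than in cortex mock cultures, by 1.72 on the log2 scale, and so was Chac1, by 1.10. Of 9 SLC7 and SLC3 amino acid transporters tested, 2 rose and 1 fell in midbrain at 2 weeks, 3 rose and 3 fell at 4 weeks, 2 rose and 4 fell in cortex at 2 weeks and 1 rose and 4 fell at 4 weeks. These are 11.1 to 44.4% of the list in each direction, against the same shares of all genes. Slc7a7, a light chain for cationic amino acids, fell in cortex at 4 weeks by 2.44 ± 0.49 (adjusted p = 0.00263). Its midbrain average at 4 weeks was 1.03 CPM, against 5.01 CPM in mock.

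Among 17 tested genes of citrate transport and use, 3 rose and 1 fell in midbrain at 2 weeks, 5 rose and 3 fell at 4 weeks, 3 rose and 2 fell in cortex at 2 weeks and 3 rose and 4 fell at 4 weeks. These are 5.88 to 29.4% of the list in each direction, against 14.7 to 20.9% of all genes. Slc13a4, a sulfate transporter of the same family as Slc13a5, rose in both regions. It averaged 65.3 and 96.3 CPM in midbrain shPTB at 2 and 4 weeks and 1.80 CPM in midbrain mock, and 30.9 and 54.2 CPM in cortex shPTB and 1.52 CPM in cortex mock, with a log2 fold change of 5.76 ± 0.33 in midbrain at 4 weeks (adjusted p = 6.42e-07). Me1, malic enzyme, rose in midbrain at 2 weeks by 2.18 ± 0.20 (adjusted p = 2.03e-05), and Idh1, cytosolic isocitrate dehydrogenase, fell in all 4 comparisons. The cortex average of Me1 at 2 weeks was 122 CPM, against 32.3 CPM in mock.

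In the renin-angiotensin list, which acts on the product of Agt, 2 of 10 tested genes rose and 3 fell in midbrain at 2 weeks, 2 rose and 5 fell at 4 weeks, 1 rose and 3 fell in cortex at 2 weeks and 1 rose and 5 fell at 4 weeks. These are 10 to 50% of the list in each direction, against 14.7 to 20.9% of all genes. The 4 calls in cortex at 2 weeks became 1 and 2 without replicates 1 and 2 of cortex shPTB at 2 weeks, and 8 with total reads scaling. Ace, which converts angiotensin I to angiotensin II, had 17.9 and 16.8 CPM in midbrain shPTB at 2 weeks and 30.1 and 25.4 CPM at 4 weeks, against 1.52 and 3.27 CPM in midbrain mock. In cortex it had 2.995 and 6.004 CPM at 2 weeks and 1.28 and 2.31 CPM at 4 weeks, against 3.72 and 4.06 CPM in mock. Its rise in midbrain at 4 weeks was 3.54 ± 0.38 (adjusted p = 4.38e-05), and its response there differed from that in cortex by 4.66 ± 0.58 (adjusted p = 0.00169, or 0.0631 with a length offset). Prcp, a carboxypeptidase that breaks down angiotensins, fell in midbrain at 4 weeks by 2.13 ± 0.30 (adjusted p = 0.000317). Its cortex average at 4 weeks was 1.49 CPM, against 5.81 CPM in mock.

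Of the prostaglandin genes around Ptgds, 17 were tested, of which 2 rose and 4 fell in midbrain at 2 weeks, 2 rose and 7 fell at 4 weeks, 2 rose and 5 fell in cortex at 2 weeks and 2 rose and 6 fell at 4 weeks. The share that rose was 11.8% each time, against 15.9 to 18.7% of all genes, and the share that fell was 23.5 to 41.2%, against 14.7 to 20.9%, a difference of a few genes that was not tested. Ptgs1, a cyclooxygenase that makes the substrate of Ptgds, averaged 0.84 and 1.90 CPM in midbrain shPTB and 9.29 CPM in midbrain mock. At 4 weeks its cortex shPTB libraries held 1 and 4 reads. In cortex at 2 weeks it held 3 reads against 531 in mock, 68.4-fold lower with a counting interval of 23.3 to 333 (adjusted p = 7.88e-06), and its response at 4 weeks differed between midbrain and cortex by 2.89 ± 0.62 (adjusted p = 0.0336), a call lost in 10 of 23 alternative settings. Ptger1, a prostaglandin E receptor, held 1 read in cortex at 2 weeks against 225 in mock, 86.9-fold lower with an interval of 15.4 to 3448 (adjusted p = 0.000339). Its midbrain average at 2 weeks was 0.28 CPM, against 10.6 CPM in mock. Ptges2, a prostaglandin E synthase, rose in all 4 comparisons, by 0.58 to 1.18. The summed level of 12 microglia markers was 136 to 142 CPM in midbrain shPTB at 2 weeks and 171 to 172 CPM in cortex shPTB at 2 weeks, against 1715 to 2231 CPM in midbrain mock and 1594 to 2304 CPM in cortex mock, and its part in the prostaglandin genes was not tested.

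For Glycam1, whose product carries the sugars that L-selectin binds, 11 genes of sialomucins and of ligand synthesis were tested. In midbrain 1 rose and 3 fell at 2 weeks and 0 rose and 4 fell at 4 weeks, and in cortex 0 rose and 5 fell at 2 weeks and 1 rose and 5 fell at 4 weeks. The share that fell was 27.3 to 45.5%, against 14.7 to 20.9% of all genes, and the share that rose was at most 9.09%, against 15.9 to 18.7%. This difference of a few genes was not tested. Podxl, a sialomucin of podocytes and vessels, held 1 read in cortex at 4 weeks against 131 in mock, 46.9-fold lower with an interval of 8.27 to 1867 (adjusted p = 0.00044). Gcnt1, which starts the branched core of these sugars, held 0 reads there against 188 in mock, 22.4-fold lower if set at a floor of 3 reads over the group, with an exact counting interval that starts at 18.1-fold (adjusted p = 0.000308). The midbrain averages at 4 weeks were 1.09 CPM for Podxl, against 11.5 CPM in mock, and 0.82 CPM for Gcnt1, against 5.33 CPM.

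Among 14 tested genes of the methyl donor cycle, on which Inmt depends, 3 rose and 3 fell in midbrain at 2 weeks, 4 rose and 3 fell at 4 weeks, and 4 rose and 3 fell in cortex at each time. These are 21.4 to 28.6% of the list in each direction, against 14.7 to 20.9% of all genes. Nnmt, a nicotinamide methyltransferase of the same family as Inmt, averaged 30.9 and 43.9 CPM in midbrain shPTB at 2 and 4 weeks and 1.51 CPM in midbrain mock, and 13.9 and 15.9 CPM in cortex shPTB and 1.66 CPM in cortex mock. It rose in midbrain at 4 weeks by 4.85 ± 0.24 (adjusted p = 3e-07), and the regions differed in response by 1.58 ± 0.33 (adjusted p = 0.0271), a call lost in 11 of 23 settings. Gamt, which makes creatine, fell in midbrain at 4 weeks by 2.67 ± 0.20 (adjusted p = 4.21e-06), and its response differed from that in cortex by -1.84 ± 0.28 (adjusted p = 0.00496). Ahcyl2 and Amd1 rose, and Adk and Mat2b fell, in all 4 comparisons.

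Of 20 carbonyl and aldo-keto reductases tested beside Cbr2, 2 rose and 2 fell in midbrain at 2 weeks, 5 rose and 3 fell at 4 weeks, 3 rose and 4 fell in cortex at 2 weeks and 3 rose and 5 fell at 4 weeks. These are 10 to 25% of the list in each direction, near the 14.7 to 20.9% of all genes. Akr1b3, aldose reductase, fell in cortex at 4 weeks by 1.90 ± 0.24 (adjusted p = 0.00011), and the mitochondrial dehydrogenase Hsd17b10 rose there by 1.65 ± 0.23 (adjusted p = 0.000264). The midbrain averages at 4 weeks were 46.6 CPM for Akr1b3, against 92.8 CPM in mock, and 65.1 CPM for Hsd17b10, against 22.9 CPM.

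Around Ppp1r1b, 4 of 24 tested partners and phosphatase inhibitors rose and 2 fell in midbrain at 2 weeks, 3 rose and 6 fell at 4 weeks, 4 rose and 3 fell in cortex at 2 weeks and 2 rose and 5 fell at 4 weeks. These are 8.33 to 25% of the list in each direction, near the 14.7 to 20.9% of all genes. Ppp1r1a, the related inhibitor 1, fell in cortex at 4 weeks by 3.72 ± 0.39 (adjusted p = 3.69e-05), with 0.549 and 1.54 CPM against 15.3 and 12.2 CPM in mock, and its response in midbrain was higher by 3.26 ± 0.50 (adjusted p = 0.00573, or 0.174 with a length offset). Cdk5r1, the activator of the kinase that phosphorylates DARPP-32, fell in midbrain at 4 weeks by 2.69 ± 0.35 (adjusted p = 0.000196). Its cortex average at 4 weeks was 1.69 CPM, against 7.32 CPM in mock. Of 14 tested genes of striatal projection neurons, 5 rose and 4 fell in midbrain at 2 weeks, 5 rose and 6 fell at 4 weeks, and 4 rose and 3 fell in cortex at each time. These are 21.4 to 42.9% of the list in each direction, against 14.7 to 20.9% of all genes. The list's median log2 fold change was 0.22 and -0.77 in midbrain at 2 and 4 weeks and -0.69 and -0.83 in cortex. Penk, the enkephalin precursor, rose in midbrain at 2 weeks by 6.39 ± 0.29 (adjusted p = 2.72e-07) and Pde10a, a phosphodiesterase of these neurons, rose there at 4 weeks by 4.24 ± 0.27 (adjusted p = 1.11e-06). Both were above mock in cortex too, where Penk averaged 35.3 CPM at 2 weeks, against 0.74 CPM in mock. Pde10a averaged 36.0 CPM in cortex and 17.4 CPM in midbrain at 4 weeks, against 1.92 and 0.91 CPM in mock. Penk had 28.05 and 27.3 CPM in midbrain shPTB and 5.31 and 7.30 CPM in cortex shPTB at 4 weeks, and the responses of the regions differed by 2.82 ± 0.44 (adjusted p = 0.00574, or 0.0501 without cortex mock replicate 1).

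**Figure D5:**
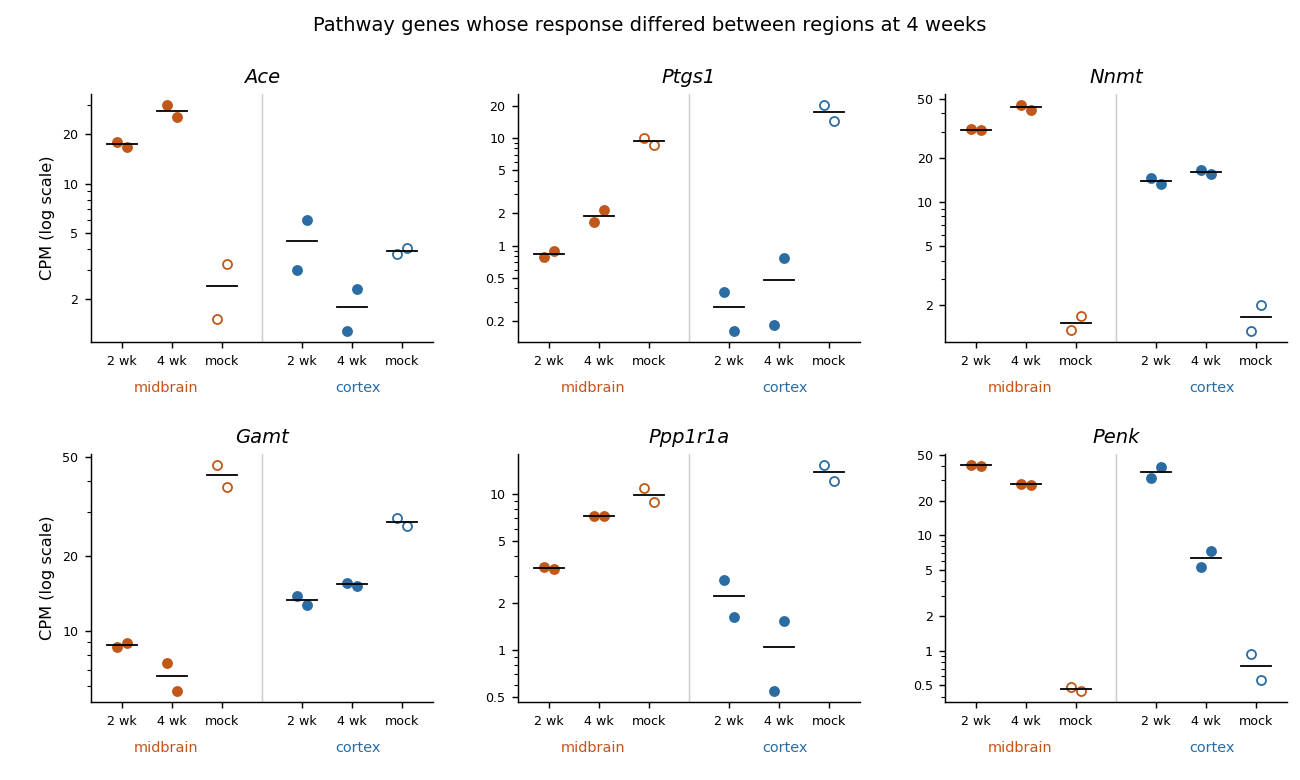
Level in CPM (log axis) of 6 pathway genes whose response at 4 weeks differed between midbrain and cortex in edgeR's test, in every library, with midbrain in orange, cortex in blue, shPTB filled, mock open and lines for means of 2 libraries. Ace, Nnmt and Penk are higher in midbrain than in cortex at 4 weeks, and Gamt is lower.

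In all, 6 of the 175 genes had a higher and 1 a lower response in midbrain than in cortex at 4 weeks, against 1.9% and 0.644% of all genes tested, or 2.55% in either direction. At 2 weeks edgeR called 0 of the 175, against 0.685% of all genes, with 30 at an unadjusted p under 0.05 and 2 called by DESeq2. A missing call at these 2 libraries per group does not show that the regions responded alike.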

How the data were processed

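RNA of 12 astrocyte cultures was sequenced. Per the labels' protocols, cDNA was primed with a biotinylated primer, caught on streptavidin beads and copied with random primers, and no molecular identifiers are described, so intervals and floors cover counting error only. Trimming with cutadapt 2.3 and quantification with Salmon 0.14.1 on the build mm10, with DESeq2 also named, come from the submitters' processing notes, which name no annotation release. The authors deposited Salmon's estimated count per transcript, without scaling between libraries, and its TPM, which is scaled within a library by effective length. Here TPM gave a second scale for the 8 genes and the weights of a length correction.

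GENCODE M21 (GRCm38) linked 140137 of the 140658 transcripts to genes. The estimated counts were summed by gene, rounded to whole numbers, filtered with filterByExpr (count minimum 10, total minimum 15) and analysed with the quasi-likelihood test of edgeR 4.0.16 (R 4.3.3), with 1 mean per group for the 6 groups given by the labels, TMM factors, no block and Benjamini-Hochberg adjustment. The script was tested on simulated data with few changed genes and the same spread in all groups. That test does not cover the wider spread of the mock libraries or the dependence on scaling. Other settings were RLE factors, scaling to total reads, a strict filter of 5 CPM in 2 libraries, no count filter, DESeq2 1.42.0, an offset for transcript length, the replicate number as block, a fit to the compared groups alone, and the omission of single libraries. Settings chosen after seeing the data omitted both mock libraries of the same number, or used the number as a block in mock libraries alone.

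The 8 genes, pathway lists and marker lists were chosen with earlier results of these data known. From each list the text names up to 2 genes with the largest called change against mock and up to 2 with the largest called difference of responses, at 5 CPM or more in some group. A change against mock is given for the region and time where it was largest, which does not mean that the other region did not change. Srxn1, G6pdx, Gstm1, Trib3, Chac1, Idh1, Ptges2, Ahcyl2, Amd1, Adk and Mat2b were named after their values were seen, as were the single markers. For each of the 8 genes, the 3 most correlated genes at 10 CPM or more in some group are given, apart from 2 genes in all that are not reported here. Promoter windows are from RefSeq (GRCm38).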

Additional observations from a re-analysis of the deposited data

Results flagged for a closer look

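The response to 4 weeks of shPTB differed between midbrain and cortex, by edgeR's test of the difference itself, for 6 pathway genes with at least 5 CPM in some group. On the log2 scale, midbrain minus cortex, the differences were 4.66 for Ace, 3.26 for Ppp1r1a, 2.89 for Ptgs1, 2.82 for Penk, 1.58 for Nnmt and -1.84 for Gamt. At 4 weeks Ace was above mock in both midbrain libraries and below mock in both cortex libraries, and Gamt was below mock in all 4 libraries. Ptgs1 and Ppp1r1a averaged below mock in both regions at 4 weeks, so their differences are in how far they lay below it. Their cortex values rest on few reads, with 1 and 4 of Ptgs1 and 3 and 8 of Ppp1r1a in the shPTB libraries. Of these 6 genes, Gamt alone passed the threshold of this test in all 23 alternative settings, with values from -2.03 to -1.62.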

How the results depend on the processing

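Depth limits the low genes most: the cortex shPTB groups held 1 to 20 reads of Cbr2, Glycam1 and Agt. Of 1929 recomputed fold changes of the 8 genes, 34 changed sign, in 12 of 84 comparisons, and every one of those 12 lay within 2 standard errors of 0 in the fit reported (at most 0.549 on the log2 scale). Leaving out 1 library at a time gave 39 to 80 called pathway genes in midbrain at 2 weeks (67 reported, 39 and 40 without either midbrain shPTB library of that time), 60 to 101 in midbrain at 4 weeks (96 reported, 60 and 61 without either midbrain shPTB library of that time), 50 to 96 in cortex at 2 weeks (75 reported), 57 to 97 in cortex at 4 weeks (78 reported), 2 to 9 for mock midbrain against cortex (4 reported, 2 without midbrain shPTB 4-week replicate 2, 7 without cortex mock replicate 2 and 9 without midbrain mock replicate 1), 0 to 2 for the difference of responses at 2 weeks (0 reported, 1 or 2 without any 1 mock library) and 4 to 10 at 4 weeks (7 reported, 4 without any 1 of the 2-week shPTB libraries, either midbrain 4-week library or cortex 4-week replicate 1). Where edgeR called 0 of these genes for the difference at 2 weeks, 18 to 30 had an unadjusted p under 0.05. Of 44 counts of single lists against mock, 37 moved by more than 1.5 times in at least 1 of the 23 settings. Total reads scaling gave 126 calls in cortex at 4 weeks, 2 for the difference at 2 weeks and 14 at 4 weeks, and DESeq2 gave 2 for the difference at 2 weeks. Without a count filter there were 11 calls in mock, 7 for the difference at 2 weeks and 11 at 4 weeks, with the strict filter 1 at 2 weeks, with the length offset 2 in mock and 4 at 4 weeks, and with only the groups compared 0 in mock (15 at an unadjusted p under 0.05, and 6 called by DESeq2 fitted to all groups) and 4 at 4 weeks. With the replicate number as a block the counts were 73 and 98 in midbrain, 78 and 86 in cortex, 8 in mock, and 3 and 11 for the differences. The labels do not say that the numbers pair libraries, and deviations from group means correlated across genes at 0.715 between the mock groups and at -0.027 to 0.031 in the other 14 pairs of groups. A replicate block in the mock libraries only, chosen after seeing the data, gave 125 calls in midbrain at 2 weeks, 123 and 128 in cortex, 52 in mock, and 41 and 51 for the differences. Leaving out both mock libraries numbered 1 gave 101 in midbrain at 2 weeks, 29 in mock, and 26 and 43 for the differences, and leaving out both numbered 2 gave 114 in midbrain at 2 weeks, 125 and 125 in cortex, 38 in mock, and 41 and 50 for the differences. The cause was not tested.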
